A study of Mus musculus with 33 samples.

Results

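Of the 33 samples of this mouse series, 6 measured how loss of the DNA methyltransferase gene Dnmt3a bears on the response of the main olfactory epithelium (MOE, the odor-sensing lining of the nose) to odor. They were chosen by their labels: the whole-MOE RNA libraries made after odor or water exposure. The mice were 3 weeks old and were wild type (WT, Dnmt3a +/+), heterozygous null (Het, Dnmt3a +/-) or homozygous null (KO, Dnmt3a -/-). They spent 10 min in a clean cage without bedding, in a dark cabinet, and were then exposed for 60 min to filter paper carrying 80 µL of water or of odor, which was amyl acetate with acetophenone and octanal in equal parts. There was 1 library for each of the 3 genotypes under each treatment, all made with the same NuGEN kit from RNA depleted of ribosomal RNA. Per the labels the animals were split between a water cage and an odor cage, so cage and treatment cannot be told apart. The labels give neither the sex of the animals, nor the number of animals in a library, nor how the null allele was built. Whole MOE holds sensory neurons, their precursors, supporting cells, glands and adjoining tissue, and in such bulk RNA fewer cells of a type and less RNA per cell cannot be told apart.

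Dnmt3a places methyl groups on cytosines that were not methylated before, including those that neurons gain as they mature. Olfactory sensory neurons detect odorants through receptors that couple to a G protein, adenylyl cyclase and a cyclic nucleotide-gated channel, and the calcium that enters switches on immediate early genes such as Fos within minutes. Heat shock proteins are chaperones that are made when proteins unfold, under the control of heat shock factor, and many of them can be induced within an hour.

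The odor effect is the log2 ratio of odor to water within a genotype, computed from the deposited gene-level values (reads per gene length, called RPKM by the authors) plus 0.5. The difference between the KO and the WT odor effect is called KO minus WT, and likewise for the other pairs. Errors given as ± are counting errors of that difference, from the whole reads recovered behind each value, and do not cover differences between animals. With 1 library per group, a value is called only by its size (at least 2-fold), and the limma tests have 1 residual degree of freedom.

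The libraries held 9410063 to 17639584 recovered reads, and the median gene had between 222 and 396 of them. Dnmt3a itself was 84.4, 50.3 and 56.1 in the water libraries of WT, Het and KO, and 89, 66.6 and 48.3 in their odor libraries, so reads of the gene were still counted in KO. Both Het libraries stood apart from the other 4. Tet3, an enzyme that oxidizes the methyl group of cytosine, was 167 and 244 in the WT water and odor libraries, 906 and 2235 in the Het ones, and 190.2 and 173 in the KO ones, and the lower of the Het values was 3.72 times the highest of the other libraries. No label names a change of Tet3, and its pooled value in sorted Het sensory neurons was 171, beside 178 in WT and 158 in KO. Counting genes with a mean value of at least 5, 26 were at least 2-fold higher and 37 at least 2-fold lower in both Het libraries than in all other libraries, against 1 and 2 for WT and 9 and 5 for KO. Omp, the classic marker of mature sensory neurons, was 5962, 1582 and 3296 in the water libraries of WT, Het and KO, and 2717, 249 and 5752 in their odor libraries. The summed value of 17 markers of central nervous system neurons was 976, 1207 and 231 in the water libraries of WT, Het and KO, and 168, 1869.6 and 537 in their odor libraries, with no marker at 0. That list was put together after values had been seen, and several members were taken from the calls of a fit given further on. The libraries in which its sum is low are thus partly set by that choice. In pooled sorted WT sensory neurons Gad1, an enzyme that makes the transmitter GABA, was 1.15, beside 47.6 in WT water MOE. The summed value of 4 Y-linked genes ran from 172 in Het odor to 455 in WT water. The part of these differences in the results below was not tested. Results that rest on Het are given beside KO minus WT, which uses none of the Het libraries.

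**Figure D1:**
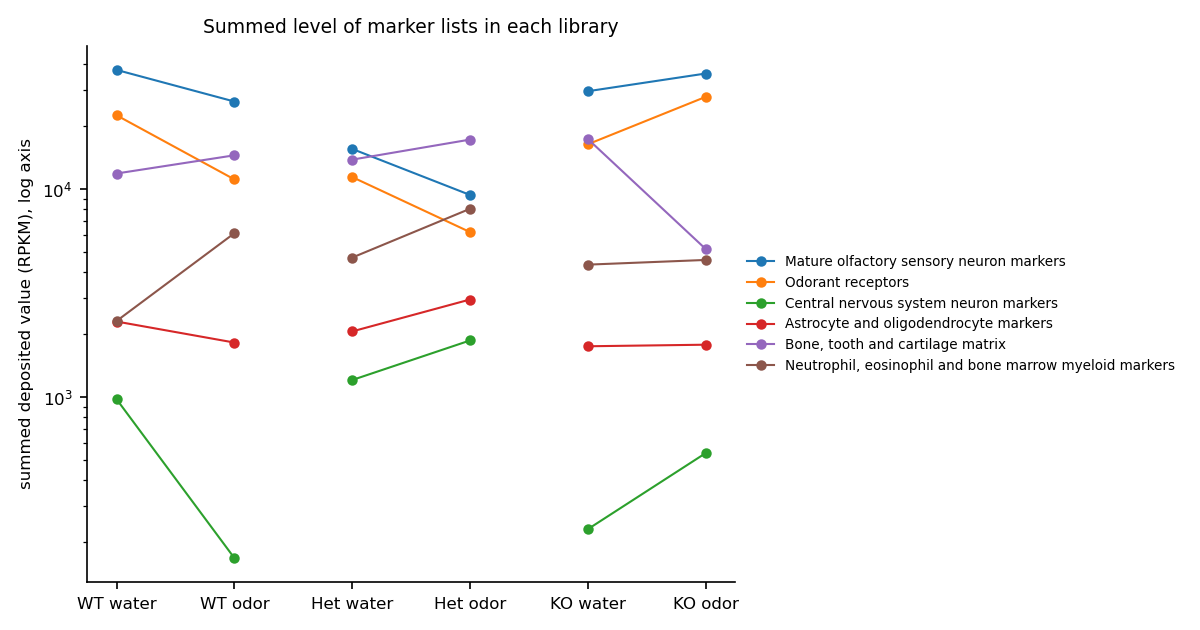
Summed deposited value (RPKM, log axis) of 6 marker lists in each of the 6 libraries, with a line joining water and odor of 1 genotype. Central nervous system neuron markers are lowest in WT odor (168) and bone, tooth and cartilage genes are lowest in KO odor (5156). Members of the central nervous system list were partly chosen by their values, so its low libraries are partly set by that choice.

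Over 14602 genes the KO odor effect differed from the WT one by 2-fold or more for 1553 genes upward (10.6%) and 1352 downward (9.26%). Against Het it was 1628 upward (11.1%) and 1328 downward (9.09%). The comparison with no KO library, Het minus WT, was nearly as wide, with 1365 genes upward (9.35%) and 1234 downward (8.45%). KO minus WT and KO minus Het share both KO libraries and are therefore not separate evidence. Genes whose odor effect was at least 2-fold higher in KO than in both other genotypes numbered 757 (5.18%). Those with an odor effect 2-fold lower in KO numbered 578 (3.96%). The median counting error of KO minus WT was 0.18, and 1310 of the upward and 1145 of the downward genes had a 95% counting interval that left out 0. The median KO minus WT over all genes was 0.01.

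The limma fit of the KO odor effect against the common effect of WT and Het called 0 genes higher (0%) and 0 lower (0%) at a Benjamini-Hochberg adjusted p of 0.05, with a smallest adjusted p of 0.232. At an unadjusted p of 0.05, 548 genes were higher and 491 lower. The same fit by voom on the recovered reads also called 0 genes, with 426 higher and 321 lower unadjusted. The only residual in these fits is the Het minus WT difference in odor effect, so WT and Het are taken to respond alike. The limma errors and p-values thus rest on the Het libraries that stood apart, and do not measure variation between libraries of 1 genotype. The gene differences below are therefore descriptions of these 6 libraries. So are those of 1 alternative fit given further on, which also has 1 residual degree of freedom.

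Within each genotype, odor was at least 2-fold above water for 762 genes in WT (5.22%), 622 in Het (4.26%) and 789 in KO (5.4%). It was at least 2-fold below for 1036 genes in WT (7.09%), 918 in Het (6.29%) and 598 in KO (4.1%). To see what KO did with a response that the other genotypes shared, genes 2-fold higher in 2 genotypes were looked up in the remaining one, whose libraries had no part in the choice. Of 116 genes higher in WT and Het, 27 were 2-fold higher in KO (23.3%). By the same reading, Het held 27 of the 81 genes higher in WT and KO (33.3%), and WT held 27 of the 97 higher in Het and KO (27.8%). The difference between these shares was not tested. The 27 genes higher in all 3 genotypes are by construction the same each time, and 14 of them belonged to the 2 lists of immediate early and activity-induced genes, among them Fos, Fosb, Egr1, Nr4a1, Nr4a3, Btg2 and Sik1. Of 216 genes lower in WT and Het, 14 were 2-fold lower in KO (6.48%), and 83 were 2-fold higher there, 70 of them odorant receptors. The matching shares were 20.9% (14 of 67) in Het and 20.6% (14 of 68) in WT. Across all 14602 genes, as a description, Pearson's r between odor effects was 0.14 for WT and Het, -0.23 for WT and KO, and -0.06 for Het and KO, where all genes share the same libraries.

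**Figure D2:**
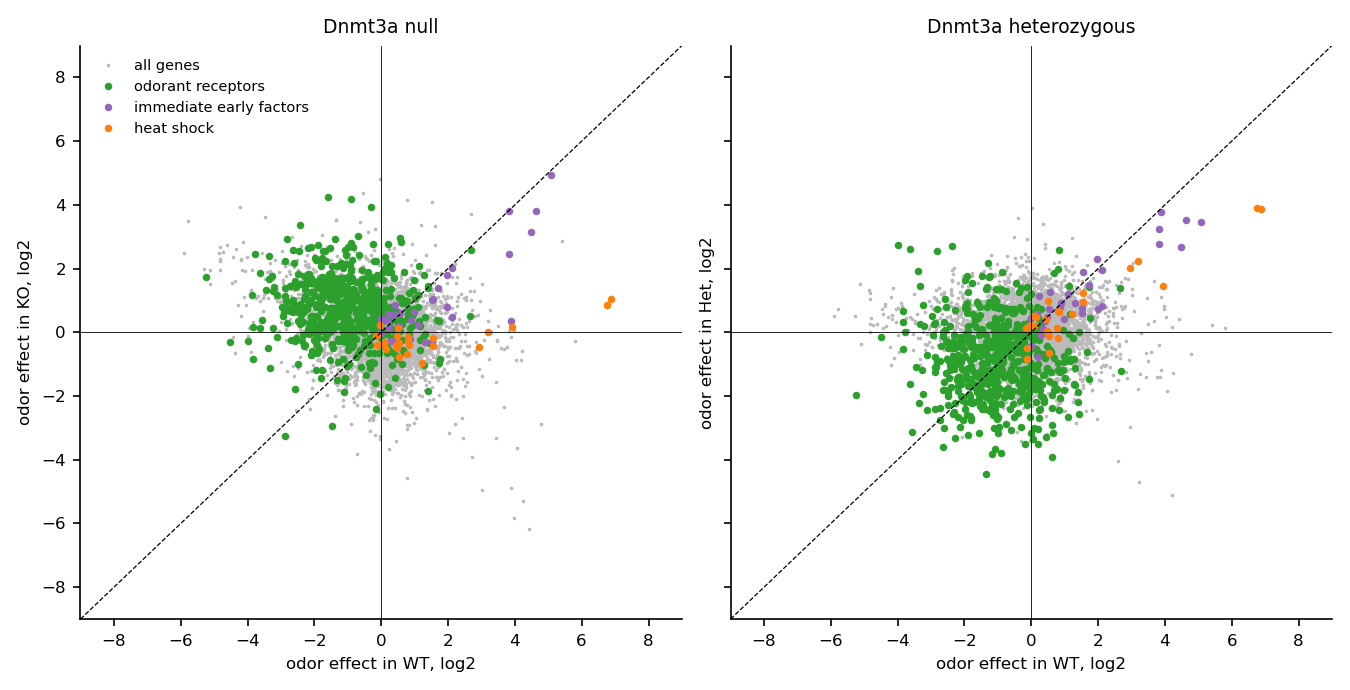
Odor effect (log2) in KO (left) and Het (right) against the odor effect in WT, 1 point per gene, with the dashed line marking equal effects. Odorant receptors have a median of -1.03 in WT and 0.74 in KO, and the heat shock genes with the largest WT effects lie far below the dashed line in KO and less far in Het.

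The heat shock chaperones, of which all 25 listed members were measured, were mostly higher with odor in WT and Het and mostly lower in KO. The odor effect was above 0 for 21 members in WT, 19 in Het and 6 in KO, and 8, 6 and 1 were 2-fold higher. The matching shares of all genes 2-fold higher were 5.22%, 4.26% and 5.4%. The 1 member past 2-fold in KO was Hspa1a, which is therefore among the 27 genes higher in all 3 genotypes. Their median odor effect was 0.54 (WT), 0.49 (Het) and -0.30 (KO), beside -0.01, 0.03 and 0.03 over all genes. In KO minus WT, 22 members were below 0 and 12 were 2-fold lower, with a median of -0.98, and in KO minus Het 21 were below 0 and 10 were 2-fold lower, with a median of -0.81. No member was 2-fold higher in either comparison. Over all genes, 9.26% were 2-fold lower in KO minus WT and 9.09% in KO minus Het. In Het minus WT, which uses no KO library, 19 members were below 0 and 4 were 2-fold lower (8.45% over all genes), with a median of -0.49. Their summed value in the water libraries was 11650.1 for WT, 11440.3 for Het and 11157.3 for KO, and in the odor libraries it was 29009.8, 22072 and 8968. In this sum the 3 water libraries were thus close together, and the difference lay in the odor libraries. The sum is weighted to abundant members. Single members could differ in water, such as Hspa1a at 69.5, 327 and 123 in WT, Het and KO. The same KO odor library was also the lowest of the 6 in the summed value of bone, tooth and cartilage genes (5156, beside 11876 to 17420 in the others), whose part in this result was not tested.

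Hspa1a, a chaperone induced by unfolded proteins, was 69.5 and 8255 in the WT water and odor libraries, 327 and 4808 in the Het ones, and 123 and 255 in the KO ones. The odor values of WT and Het were above all water values, while that of KO was below Het water. Its odor effects were 6.88 (WT), 3.88 (Het) and 1.05 (KO), and KO minus WT was -5.83 ± 0.14 and KO minus Het -2.82 ± 0.11. Its near-identical neighbor Hspa1b was 45.2, 192 and 76.5 in the water libraries of WT, Het and KO, and 4931, 2853 and 139.8 in their odor libraries, and because reads of the copies could be split between them, each value is uncertain on its own. Hspa1l, a relative with lower values, had odor effects of 3.93 (WT), 1.46 (Het) and 0.17 (KO).

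Dnajb1, a cochaperone that delivers clients to Hspa1 proteins, was 69.5 and 640.4 in the WT water and odor libraries, 66.8 and 316 in the Het ones, and 72.3 and 73.3 in the KO ones, so the KO libraries were nearly equal where those of WT and Het were far apart. KO minus WT was -3.18 ± 0.15, and limma gave -2.69 ± 0.48 (SE) against the common effect of WT and Het, with an adjusted p of 0.327. The small heat shock protein Hspb1, which holds unfolded proteins, was 55.8, 66.7 and 55.8 in the water libraries of WT, Het and KO, and 432, 273 and 40.4 in their odor libraries. Here KO odor was the lowest of the 6 libraries, and KO minus WT was -3.40 ± 0.24 (limma -2.94 ± 0.48, adjusted p = 0.308). Hsph1, a nucleotide exchange factor of Hspa1 proteins, had odor effects of 1.21 (WT), 0.57 (Het) and -0.97 (KO), and the cochaperone Bag3 had 1.54 (WT), 0.94 (Het) and -0.18 (KO). For Hspb8, a partner of Bag3, the effects were 1.54 (WT), 1.25 (Het) and -0.43 (KO). The abundant constitutive chaperone Hspa8 was 2037 and 3632 in the WT water and odor libraries, 2263 and 3488 in the Het ones, and 2122 and 1617 in the KO ones, with KO minus WT of -1.23 ± 0.02. Among the cytosolic Hsp90 genes, Hsp90aa1 had effects of 0.48 (WT), -0.01 (Het) and -0.50 (KO) and Hsp90ab1 had 0.09 (WT), 0.50 (Het) and -0.30 (KO). The mitochondrial chaperonin genes Hspe1 and Hspd1 had 0.77 (WT), 0.14 (Het) and -0.67 (KO) and 0.46 (WT), 0.03 (Het) and -0.12 (KO). The 3 members above 0 in KO minus WT were Hspa4, Hspa4l and the mitochondrial Hspa9, at 0.03, 0.04 and 0.26.

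Other stress lists were read against the shares over all genes, 10.6% 2-fold higher and 9.26% 2-fold lower in KO minus WT. Of 21 genes of the unfolded protein response of the endoplasmic reticulum, 16 were below 0 in KO minus WT, but 1 was 2-fold lower and 0 were 2-fold higher, with a median of -0.27. The member past 2-fold was the chaperone cofactor Sdf2l1, with odor effects of 0.41 (WT), -0.08 (Het) and -0.96 (KO), while the main chaperone of that compartment, Hspa5, had 0.45 (WT), 0.53 (Het) and -0.35 (KO). Of 15 glucocorticoid-induced genes, which respond to adrenal stress hormone, 2 were 2-fold higher and 1 was 2-fold lower, close to the shares over all genes, with a median of 0.06. Of 13 genes of DNA methylation and demethylation, Mbd4, a glycosylase at methylated sites, was the 1 past 2-fold, at 29.8, 21.3 and 22.2 in the water libraries of WT, Het and KO, and 20.2, 18.9 and 32.2 in their odor libraries, and the list's median KO minus WT was 0.06. The maintenance methyltransferase Dnmt1 had odor effects of 0.10 (WT), 0.90 (Het) and -0.02 (KO).

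**Figure D3:**
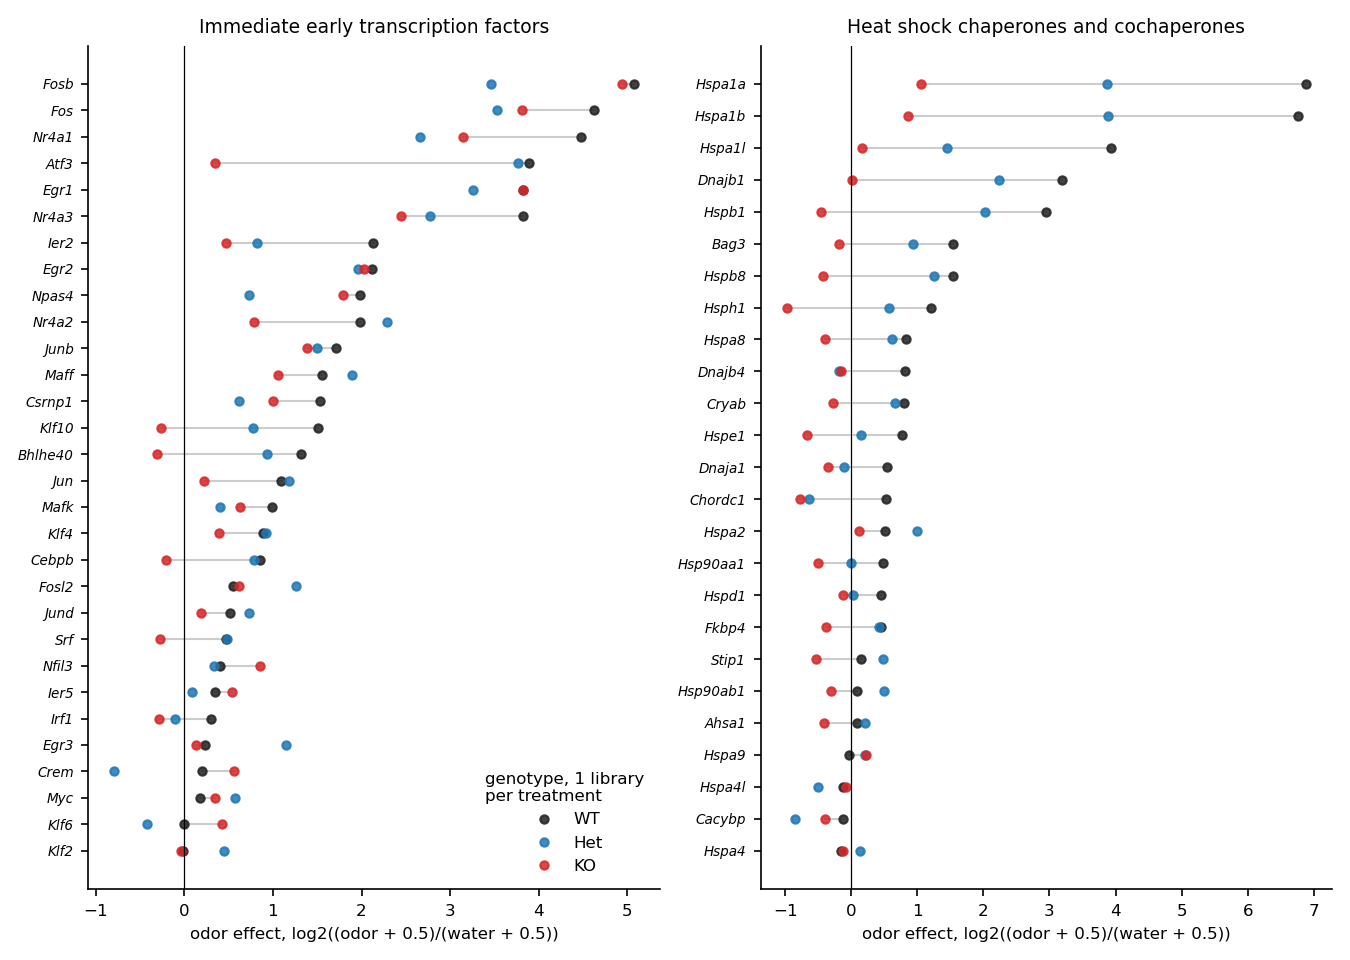
Odor effect (log2) of each measured immediate early transcription factor (left, 30 genes) and heat shock gene (right, 25 genes) in WT, Het and KO, with a grey line joining WT and KO. Most heat shock genes lie right of 0 in WT and left of it in KO, while Fosb, Egr1 and Egr2 have nearly the same effect in WT and KO.

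Promoters were set beside this pattern because the heat shock genes differed together. From RefSeq (GRCm38.p6), 300 bases around the start of each gene were read, 250 before it and 50 after. These are on another build than the expression values and were matched by symbol, for 20 of the 25 heat shock genes and 23 of the 30 immediate early transcription factors. Of 8 motifs searched on both strands, GAANNTTC and TTCNNGAA, the dimeric core of the heat shock element, together occurred in 12 of the 20 heat shock promoters (60%) and in 15.1% of all 32851 promoters. TGACG, the core of the cyclic AMP response element, occurred in 17 of the 23 immediate early promoters (73.9%), 12 of the 20 heat shock promoters (60%) and 20.8% of all promoters, though in 31.8% of those of genes kept here. The full TGACGTCA was in 1 of the 23, the CArG box in 2, TGACTCA in 1, GCGTGGGCG in 1 and CCAAT in 10, against 1.79%, 1.63%, 5.2%, 0.612% and 37.4% of all promoters. The heat shock genes with GAANNTTC or TTCNNGAA had a median KO minus WT of -1.58 (12 genes) and those without had -0.44 (8 genes). The groups overlapped, since Hspa1l and Dnajb1, at -3.76 and -3.18, had 0 matches. The immediate early transcription factors with TGACG had a median of -0.50 (17 genes) and those without had -0.13 (6 genes). The median WT odor effect was also split, 1.01 with and 0.12 without a match in the heat shock genes. In the immediate early transcription factors it was 1.71 with and 0.44 without. The WT effect is subtracted in KO minus WT, so the split in KO minus WT is not separate from that in WT. GAANNTTC, TTCNNGAA and TGACGTCA read the same on both strands, and each TGACGTCA also counts as a TGACG. The motifs followed up, and the 6 promoters printed, were picked after matches had been seen, so the shares are a description, and a match is not a site. In the following lines, capitals mark GAANNTTC or TTCNNGAA in the heat shock genes, and TGACG on either strand in Fos, Nr4a1 and Pcdh10, which are described below.
Hspa1a promoter, chr17:34972107-34972406, minus strand: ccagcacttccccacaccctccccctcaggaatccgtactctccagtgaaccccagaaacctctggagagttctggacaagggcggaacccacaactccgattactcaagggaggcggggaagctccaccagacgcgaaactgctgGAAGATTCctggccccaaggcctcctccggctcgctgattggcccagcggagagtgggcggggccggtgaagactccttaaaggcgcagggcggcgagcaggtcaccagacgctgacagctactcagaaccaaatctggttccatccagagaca
Hspb1 promoter, chr5:135887669-135887968, plus strand: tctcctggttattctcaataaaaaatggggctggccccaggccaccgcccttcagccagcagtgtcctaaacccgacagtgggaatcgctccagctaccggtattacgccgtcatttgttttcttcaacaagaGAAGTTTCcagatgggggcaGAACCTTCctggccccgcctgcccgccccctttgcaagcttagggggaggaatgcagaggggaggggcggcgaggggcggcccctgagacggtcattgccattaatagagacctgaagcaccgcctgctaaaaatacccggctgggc
Hsph1 promoter, chr5:149636287-149636586, minus strand: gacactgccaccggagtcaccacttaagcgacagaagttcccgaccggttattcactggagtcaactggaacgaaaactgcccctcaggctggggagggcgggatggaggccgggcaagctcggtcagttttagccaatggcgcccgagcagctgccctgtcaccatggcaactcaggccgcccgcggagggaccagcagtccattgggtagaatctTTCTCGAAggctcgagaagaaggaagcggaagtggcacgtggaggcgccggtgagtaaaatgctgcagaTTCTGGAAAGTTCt
Fos promoter, chr12:85473640-85473939, plus strand: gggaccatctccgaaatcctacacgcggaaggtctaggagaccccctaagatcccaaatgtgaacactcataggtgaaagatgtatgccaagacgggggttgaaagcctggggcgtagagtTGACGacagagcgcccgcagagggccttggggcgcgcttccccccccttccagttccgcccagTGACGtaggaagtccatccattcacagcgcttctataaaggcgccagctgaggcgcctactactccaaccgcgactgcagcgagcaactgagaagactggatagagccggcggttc
Nr4a1 promoter, chr15:101266596-101266895, plus strand: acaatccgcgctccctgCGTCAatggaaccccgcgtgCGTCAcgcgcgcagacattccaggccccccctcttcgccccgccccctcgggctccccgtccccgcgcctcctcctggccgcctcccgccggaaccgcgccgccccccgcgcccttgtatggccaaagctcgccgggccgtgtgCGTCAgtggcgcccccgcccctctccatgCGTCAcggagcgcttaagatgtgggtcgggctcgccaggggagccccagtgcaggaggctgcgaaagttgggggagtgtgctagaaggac
Pcdh10 promoter, chr3:45378148-45378447, plus strand: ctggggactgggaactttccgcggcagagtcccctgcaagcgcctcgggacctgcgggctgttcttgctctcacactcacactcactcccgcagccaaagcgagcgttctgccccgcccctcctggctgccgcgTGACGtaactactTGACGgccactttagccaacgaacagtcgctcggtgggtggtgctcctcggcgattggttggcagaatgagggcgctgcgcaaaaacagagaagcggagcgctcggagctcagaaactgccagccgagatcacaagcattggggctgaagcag
Hspb1 carries 2 matches, Hsph1 3 (2 of them overlapping), and Hspa1a 1, while Nr4a1 carries 4 matches of the TGACG core, Fos 2 and Pcdh10 2. The Hspa1a and Hspa1b promoters share 296 of 300 bases.

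Most immediate early transcription factors were higher with odor in KO as well, by less than in WT. Of 30 measured, 29 were higher with odor than with water in WT, 27 in Het and 24 in KO, and 16, 13 and 9 were 2-fold higher. Their median odor effect was 1.20 (WT), 0.87 (Het) and 0.55 (KO). The difference KO minus WT was below 0 for 23 members and 2-fold lower for 8, with a median of -0.42. KO minus Het was below 0 for 18 and 2-fold lower for 5, with a median of -0.28, while 3 were 2-fold higher. Het minus WT, which uses no KO library, was below 0 for 20 and 2-fold lower for 6, with a median of -0.24. Over all genes, 9.26% were 2-fold lower in KO minus WT, 9.09% in KO minus Het and 8.45% in Het minus WT. In KO minus Het 11.1% of all genes were 2-fold higher. With odor, 5.22% of all genes were 2-fold higher in WT, 4.26% in Het and 5.4% in KO. WT odor, which held the highest values of many of these genes, was the library with the lowest sum of central nervous system neuron markers (168). Where that sum is low is partly set by how its members were chosen, and the part of such tissue in the differences was not tested.

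Fosb, a partner of Jun proteins, was 17 and 587 in the WT water and odor libraries, 51.9 and 576 in the Het ones, and 12.6 and 401 in the KO ones. All odor libraries were above all water libraries, and KO minus WT was -0.13 ± 0.30. Egr1, a zinc finger factor, had odor effects of 3.82 (WT), 3.26 (Het) and 3.82 (KO), so WT and KO did not differ beyond counting error. Fos had effects of 4.63 (WT), 3.52 (Het) and 3.81 (KO), with KO between WT and Het, and Egr2 had 2.12 (WT), 1.96 (Het) and 2.03 (KO). The orphan nuclear receptor Nr4a1 was 66.9, 118 and 78.7 in the water libraries of WT, Het and KO, and 1498, 749 and 698 in their odor libraries. WT odor was the highest, and KO odor was close to Het odor, with KO minus WT of -1.34 ± 0.17 and KO minus Het of 0.48 ± 0.15. Its relative Nr4a3 was 5.13 and 78.9 in the WT water and odor libraries, 11.9 and 84.7 in the Het ones, and 4.02 and 24.1 in the KO ones, where KO odor was the lowest odor library. Nr4a2, of the same family, had odor effects of 1.98 (WT), 2.29 (Het) and 0.79 (KO). Npas4, a factor made by neurons on calcium entry, was 7.83, 22.7 and 8.93 in the water libraries of WT, Het and KO, and 32.4, 38.2 and 32.2 in their odor libraries, higher with odor in each genotype. Junb had 1.71 (WT), 1.5 (Het) and 1.38 (KO) and Maff 1.55 (WT), 1.89 (Het) and 1.05 (KO), both bZIP factors that were higher with odor in each genotype.

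Atf3, a stress-induced factor of the ATF/CREB family, had the most negative KO minus WT of the list. It was 6.08 and 96.8 in the WT water and odor libraries, 1.86 and 31.6 in the Het ones, and 11.2 and 14.4 in the KO ones, so the treatments hardly differed in KO. KO minus WT was -3.54 ± 0.54, KO minus Het -3.42 ± 0.74, and limma gave -3.48 ± 0.61 (SE) with an adjusted p of 0.318. The repressor Bhlhe40 was 98.3, 162 and 181 in the water libraries of WT, Het and KO, and 246, 309 and 146 in their odor libraries, with KO odor below KO water. Klf10, which is induced by TGF-beta, had odor effects of 1.51 (WT), 0.78 (Het) and -0.27 (KO), and the short-lived regulator Ier2 had 2.13 (WT), 0.82 (Het) and 0.47 (KO). Jun was 647 and 1378 in the WT water and odor libraries, 488 and 1111 in the Het ones, and 462 and 539 in the KO ones, with effects of 1.09 (WT), 1.19 (Het) and 0.22 (KO).

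**Figure D4:**
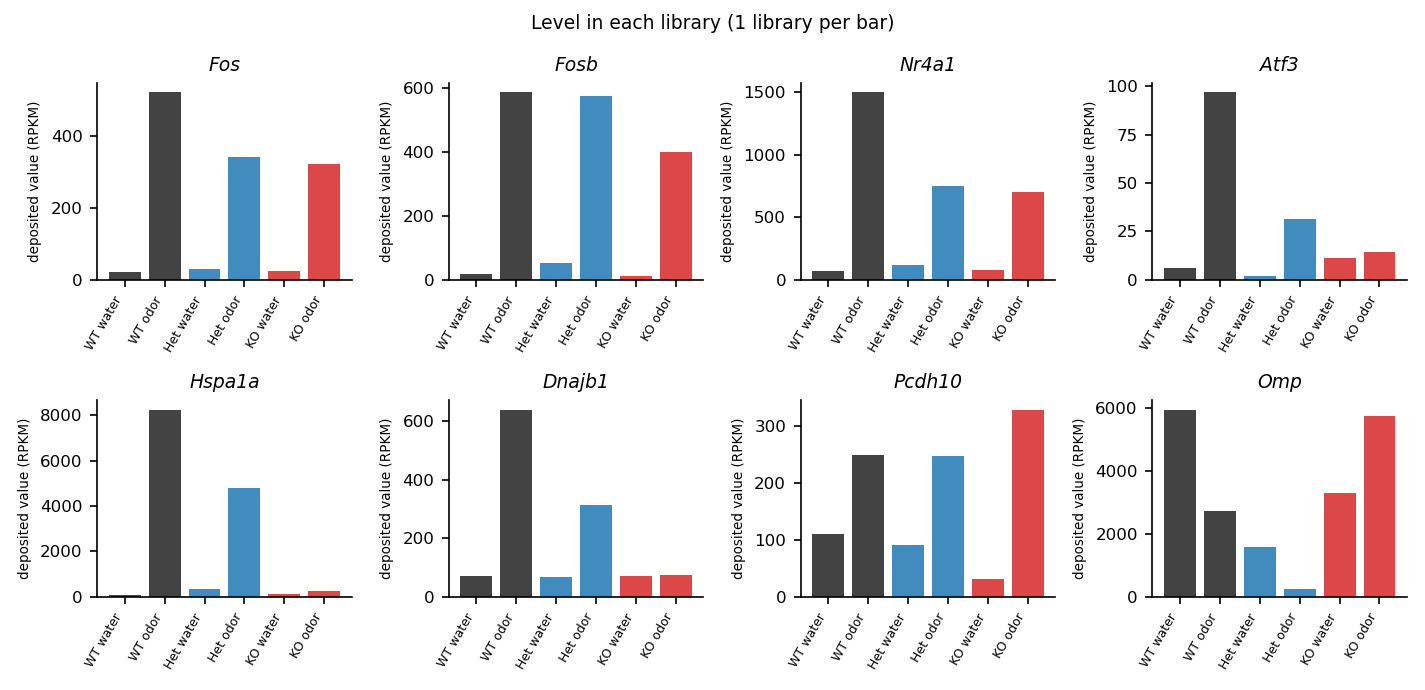
Deposited value (RPKM) of 8 genes in each of the 6 libraries, 1 library per bar. Fos, Fosb and Nr4a1 are high in every odor library, Atf3, Hspa1a and Dnajb1 are high in WT and Het odor only, Pcdh10 is lowest in KO water, and Omp is lowest in Het odor.

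Among 41 activity-induced feedback regulators and effectors, the median odor effect was 0.72 (WT), 0.68 (Het) and 0.46 (KO). Members were divided almost evenly in KO minus WT, 21 below 0 and 20 above, with a median of -0.21. There 7 members were 2-fold lower and 2 higher, beside 9.26% and 10.6% of all genes. In Het minus WT, which uses no KO library, 24 were below 0 and 17 above, with a median of -0.24. There 4 members were 2-fold lower and 5 higher, beside 8.45% and 9.35% of all genes. Zfp36, which speeds the decay of cytokine mRNAs, was 77.5, 101 and 95.9 in the water libraries of WT, Het and KO, and 448, 283 and 195 in their odor libraries, a value higher with odor in every genotype and most so in WT. The immediate early effector Arc, which acts at synapses, had odor effects of 1.8 (WT), 1.26 (Het) and 0.79 (KO). Btg2, which slows cell division, had 2.01 (WT), 1.95 (Het) and 1.75 (KO), and the kinase gene Sik1 had 2.13 (WT), 1.41 (Het) and 1.74 (KO). Among feedback inhibitors, Socs3, which damps cytokine signaling, had 1.56 (WT), 0.22 (Het) and -0.47 (KO), and Spry4, which damps receptor tyrosine kinases, had 1.78 (WT), 0.68 (Het) and -0.10 (KO). The stress-response gene Gadd45g was 29 and 37.2 in the WT water and odor libraries, 38 and 64.7 in the Het ones, and 58.6 and 15.7 in the KO ones, and KO alone had less with odor than with water. The neuropeptide precursor Vgf had -2.62 (WT), 1.23 (Het) and 1.32 (KO), from few reads, so KO minus WT was 3.94 ± 1.14. Its lowest values were in WT odor and KO water, which also had the lowest summed central nervous system neuron markers (168 and 231). The low sums there are partly set by how those markers were chosen, so the match supports nothing.

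Genes known to follow activity in sensory neurons went in other directions. Of 11 measured, KO minus WT was above 0 for 8, with a median of 0.64, and 3 were 2-fold higher against 1 lower. Over all genes those shares were 10.6% and 9.26%. The 1 member 2-fold lower was Rasgrp4, with odor effects of 0.45 (WT), -0.58 (Het) and -1.04 (KO). KO minus Het was above 0 for 8, with a median of 0.56, and 5 were 2-fold higher against 0 lower (11.1% and 9.09% over all genes). The direction was not particular to these genes. The median KO minus WT was 0.58 for the transduction genes and 0.47 for the mature neuron markers described below. Pcdh10, a homophilic adhesion protein of sensory axons, was 109, 90 and 31.4 in the water libraries of WT, Het and KO, and 248, 248 and 329 in their odor libraries. Odor was above water in each genotype, and KO water was the lowest library and KO odor the highest, giving KO minus WT of 2.19 ± 0.07 (limma 2.05 ± 0.34, adjusted p = 0.318). Lrrc3b, a leucine-rich repeat membrane protein, was 137 and 139 in the WT water and odor libraries, 58.4 and 42.1 in the Het ones, and 114 and 512 in the KO ones, with KO odor alone high. The adhesion gene Kirrel3 had odor effects of -0.24 (WT), -0.06 (Het) and 1.34 (KO), and the semaphorin Sema7a had 0.69 (WT), 0.76 (Het) and 1.32 (KO). By contrast, Kirrel2, a relative of Kirrel3 that is known to be activity dependent, was 380.5, 188 and 474 in the water libraries of WT, Het and KO, and 547, 144 and 467 in their odor libraries. S100a5, a calcium-binding protein of sensory neurons, was 13119 and 7712 in the WT water and odor libraries, 3941 and 1785 in the Het ones, and 8746 and 8822 in the KO ones, with less with odor than with water in WT and Het and nearly equal values in KO.

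The transduction machinery of the sensory neuron was on median lower with odor in WT and Het and higher in KO. The median odor effect of 17 genes was -0.23 (WT), -0.35 (Het) and 0.37 (KO). In KO minus Het, 16 were above 0 and 5 were 2-fold higher (11.1% over all genes), with a median of 0.73. In KO minus WT, 15 were above 0 and 3 were 2-fold higher (10.6% over all genes). The median there was 0.58, with 0 genes 2-fold lower (9.26% over all genes). The largest difference was in Ric8b, which aids the olfactory G protein, with 2307, 690.4 and 1410.4 in the water libraries of WT, Het and KO, and 1125, 548 and 3249 in their odor libraries (limma 1.89 ± 0.44, adjusted p = 0.46). The G protein alpha subunit Gnal was 2289 and 1978 in the WT water and odor libraries, 1103 and 726 in the Het ones, and 1972 and 2804 in the KO ones, while the channel subunit Cnga2 had odor effects of -0.17 (WT), -0.29 (Het) and 0.54 (KO). The adenylyl cyclase gene Adcy3 had -0.004 (WT), 0.12 (Het) and 0.66 (KO), and the chloride channel Ano2 had -0.64 (WT), -0.35 (Het) and 0.37 (KO). Of 21 mature neuron markers, some of them also in the transduction list, 18 were above 0 in KO minus WT, with a median of 0.47. In KO minus Het, 16 of these markers were above 0, with a median of 0.34. Their summed value in the water libraries was 37393 (WT), 15593 (Het) and 29526 (KO), and in the odor libraries 26346, 9369 and 35919. It was thus higher in WT water than in WT odor, and lower in KO water than in KO odor.

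Odorant receptors, the most numerous members of the neuron's gene set, were mostly lower with odor in WT and Het and mostly higher in KO. Of 590 measured, 106 had an odor effect above 0 in WT, 126 in Het and 468 in KO. The medians were -1.03, -0.92 and 0.74. By KO minus WT, 405 were 2-fold higher and 25 2-fold lower, with a median of 1.8 (10.6% and 9.26% over all genes). KO minus Het was 2-fold higher for 383 and 2-fold lower for 33, with a median of 1.636 (11.1% and 9.09% over all genes). In Het minus WT, which uses no KO library, 169 were 2-fold higher and 142 lower, with a median of 0.09 (9.35% and 8.45% over all genes). Receptors thus passed 2-fold more often than all genes there too, in both directions. Receptors were 4.04% of the genes kept and 26.1% of those 2-fold higher in KO minus WT. The summed receptor value in the water libraries was 22628 (WT), 11420.5 (Het) and 16406 (KO), and in the odor libraries 11127, 6211 and 27728. Within each genotype the library with the higher receptor sum also had the higher mature neuron marker sum, and the part of neuron number in the receptor result was not tested. Receptors with a mean value of at least 50 had a median KO minus WT of 2.0 (67 genes, 63 above 0), where the median counting error was 0.35, beside 1.26 and 1.10 for the 103 receptors with a mean value under 10. Receptor genes have close relatives, and reads may be shared between them.

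Olfr1160, first among receptors by the smaller of its KO minus WT and KO minus Het, was 53.5, 34 and 10.6 in the water libraries of WT, Het and KO, and 8.2, 2.33 and 66.6 in their odor libraries, and its KO odor library was the highest of the 6. Olfr164 was 50.4 and 4.5 in the WT water and odor libraries, 14.5 and 2.72 in the Het ones, and 13.9 and 74.8 in the KO ones. Olfr1160 and Olfr164 rest on few reads in some libraries, with KO minus WT of 5.23 ± 0.75 and 5.73 ± 0.78. Olfr1216 was 54.9, 37.8 and 35.3 in the water libraries of WT, Het and KO, and 16.8, 11.1 and 207 in their odor libraries. Among the few receptors with a lower odor effect in KO was Olfr378. It was 4.43 and 16.1 in the WT water and odor libraries, 9.99 and 13.9 in the Het ones, and 8.9 and 4.71 in the KO ones. Olfr1391 was 21.3, 3.98 and 21.8 in the water libraries of WT, Het and KO, and 7.36, 3.98 and 2.4 in their odor libraries, and both rest on few reads. Trace amine-associated receptors, which detect volatile amines, had a median odor effect of -0.45 (WT), -0.67 (Het) and 0.74 (KO) over 11 genes, and 7 were 2-fold higher in KO minus WT. Taar4 was 24.6 and 4.71 in the WT water and odor libraries, 8.92 and 3.57 in the Het ones, and 1.22 and 7.53 in the KO ones. It had 1 recovered read in KO water and 7 in KO odor, and KO minus WT was 4.49 ± 1.46.

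**Figure D5:**
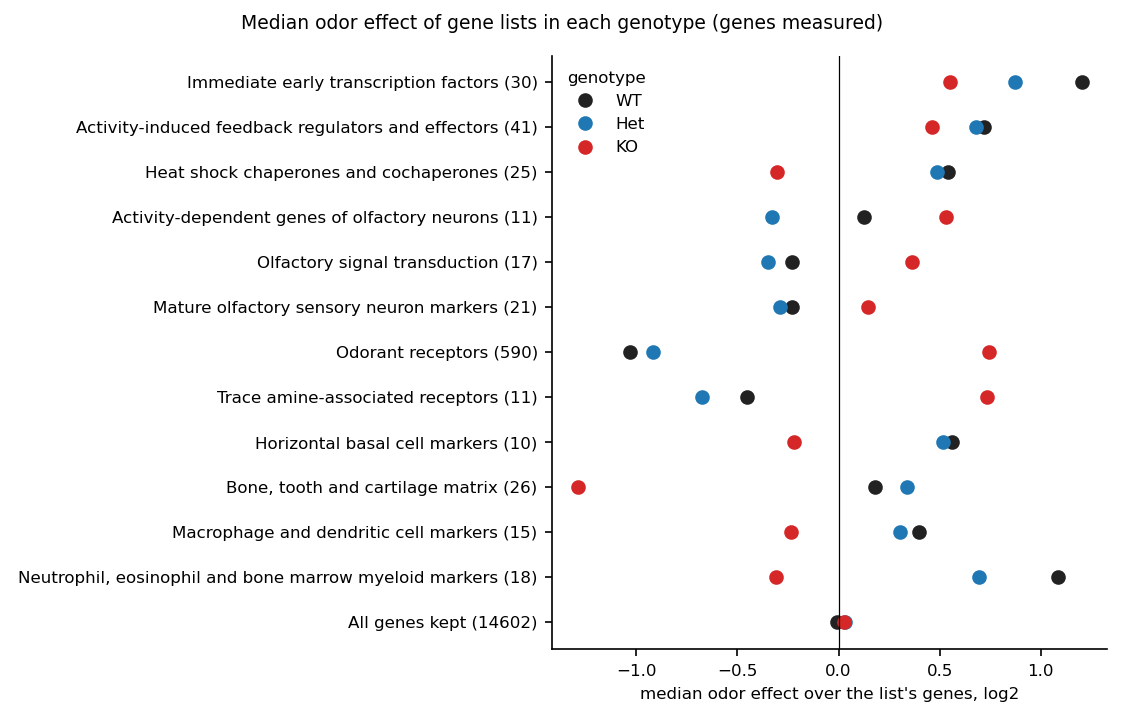
Median odor effect (log2) of 12 gene lists and of all genes in WT, Het and KO, with the number of genes measured in parentheses. Receptor and transduction lists lie left of 0 in WT and Het and right of it in KO, and the bone list lies far left in KO only (-1.29).

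Lists of other tissues differed as well. Over all genes, 10.6% were 2-fold higher and 9.26% lower in KO minus WT, and 11.1% and 9.09% in KO minus Het. Of 26 bone, tooth and cartilage genes, all 26 were lower with odor in KO, with a median of -1.29 beside 0.18 in WT and 0.34 in Het. The difference KO minus WT was 2-fold lower for 17 and KO minus Het for 19, and neither comparison had a gene 2-fold higher. Col1a1, the main bone collagen, was 2223, 2615 and 3596 in the water libraries of WT, Het and KO, and 3778, 4931 and 746 in their odor libraries. The osteocalcin gene Bglap was 1274 and 1017 in the WT water and odor libraries, 1774 and 1735 in the Het ones, and 2159 and 251 in the KO ones. The list's summed value in the water libraries was 11876 (WT), 13846 (Het) and 17420 (KO), and in the odor libraries 14527, 17286 and 5156, so KO odor alone was low. The dentin gene Dspp was 13.6, 6.74 and 133 in the water libraries of WT, Het and KO, and 114, 18.2 and 3.83 in their odor libraries. The enamel gene Ambn was 35.5 and 679.6 in the WT water and odor libraries, 31.7 and 12.9 in the Het ones, and 116 and 2.43 in the KO ones. The enamel and dentin genes thus varied among the water libraries too.

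Of the myeloid markers, 11 of 18 were 2-fold lower in KO minus WT (median -1.49) and 8 in KO minus Het (median -0.82). The eosinophil granule gene Prg2 was 63.5, 73.3 and 80.5 in the water libraries of WT, Het and KO, and 108, 118 and 9.38 in their odor libraries, with KO odor far below the other 5. The list's summed value did not follow Prg2: it was 2319.8 (WT), 4680.1 (Het) and 4329.8 (KO) in the water libraries and 6129, 8033 and 4560.5 in the odor libraries, so KO odor was not low. Of the 15 macrophage markers, 12 were below 0 in KO minus WT (median -0.77), while their summed value was highest in KO odor (4246, beside 2021 in KO water). Of 10 horizontal basal cell markers, 9 were below 0 (median -0.84). Skeletal muscle genes lay on the other side, with 7 of 9 being 2-fold higher in KO minus WT (10.6% over all genes). In Het minus WT, which uses no KO library, 5 were 2-fold higher and 0 lower (9.35% and 8.45% over all genes). The list's median value was low, from 2.2 to 7.32 apart from KO odor (23.7). The myosin Myh1 was 0.541 and 0.215 in the WT water and odor libraries, 1.43 and 0.945 in the Het ones, and 3.06 and 73.2 in the KO ones. The actin Acta1 was 11.2, 14.2 and 12.3 in the water libraries of WT, Het and KO, and 4.08, 14.4 and 147 in their odor libraries. In WT odor Myh1 and Acta1 had 5 and 6 recovered reads. Whether tissue carried along in dissection played a part in the results above was not tested.

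Outside the odorant receptors, genes with a mean value of at least 5 were ranked by the smaller of KO minus WT and KO minus Het. This ranks odor effects, not levels. The 12 highest included the muscle gene Myh1, the major urinary protein gene Mup17, the receptor subunit gene Gabra5 and the muscarinic receptor gene Chrm2. Gabra5 was 29.7 and 1.11 in the WT water and odor libraries, 101 and 72.7 in the Het ones, and 0.959 and 21.6 in the KO ones. It was low in WT odor and in KO water, with 3 and 2 recovered reads, and KO minus WT was 8.15 ± 1.22. Central nervous system markers were low in the same libraries, which is partly set by how they were chosen. Mup17 was 47.2, 103 and 26.8 in the water libraries of WT, Het and KO, and 14.1, 28.9 and 94.7 in their odor libraries. BC100530 was 9.4 and 9.08 in the WT water and odor libraries, 7.98 and 11.3 in the Het ones, and 5.03 and 155 in the KO ones, high in KO odor only. The 12 most negative by the same ranking were led by Gm5840. It was 16.3, 495 and 515 in the water libraries of WT, Het and KO, and 264, 886 and 8.57 in their odor libraries. BC048679 was 6.55 and 149 in the WT water and odor libraries, 293 and 395 in the Het ones, and 384 and 4.83 in the KO ones. Both were low in WT water and in KO odor and high in the other 4, so the difference between genotypes came from water and odor libraries alike. Psapl1 was 10.8, 245 and 249.7 in the water libraries of WT, Het and KO, and 166, 529.5 and 7.93 in their odor libraries. The fatty acid desaturase gene Scd3 was 25.2 and 169 in the WT water and odor libraries, 276 and 459 in the Het ones, and 236 and 15.1 in the KO ones, so in both genes WT water and KO odor were again the lowest libraries. The lipocalin gene Lcn4, expressed in nasal glands, was 97, 424 and 1534 in the water libraries of WT, Het and KO, and 5388, 468 and 1266 in their odor libraries, high in WT odor only. The gland gene Dmbt1 was 280.4 and 3103 in the WT water and odor libraries, 343 and 729 in the Het ones, and 857 and 727 in the KO ones.

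When the odor effect was instead fitted as linear in the number of null alleles, limma called 71 genes higher (0.486%) and 26 lower (0.178%) with each null allele. This was 1 of 11 limma settings fitted, of which 9 called 0 genes and another, with Het pooled with KO, called 1 higher and 1 lower. Its error is the departure of Het from the midpoint of WT and KO, so it rests on the Het libraries that stood apart. It does not measure variation between libraries of 1 genotype, so its calls too describe these 6 libraries. The lower genes included Hspa1a, Hspa1b, Dnajb1 and Hspb1 of the heat shock list (adjusted p = 0.00104, 0.00104, 0.0366 and 0.0373), with slopes per allele of -2.92, -2.94, -1.59 and -1.70. The higher genes included 21 odorant receptors, Gfap of astrocytes, and 10 of the 17 central nervous system neuron markers and 7 of the 14 glial ones. Several members of those marker lists were taken from these calls, so their counts support nothing, and neither do the libraries in which their sums are low. No immediate early transcription factor was called.

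The 13359 MOE genes with a sorted-neuron value were ordered by the ratio of sorted WT sensory neurons to MOE. They were divided into 5 bins of about 2672 genes. The tables were normalized separately and used different library kits, so only the order within MOE is read. The median KO minus WT was -0.14 in the lowest bin and 0.10 in the highest, and 16.4% of the highest bin was 2-fold higher against 6.55% 2-fold lower. Without odorant and trace amine-associated receptors, the highest bin's median was 0.01, with 6.35% 2-fold higher and 6.93% lower.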

How the data were processed

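Per the labels' protocols, total RNA of whole MOE was depleted of ribosomal RNA and made into libraries with NuGEN Encore Complete. The submitters' processing notes name Bowtie2 2.1, STAR 2.3.0, Picard 1.64, featureCounts and DESeq and the build mm9 (NCBIM37). The deposited values are called RPKM by the authors, and their formula is not given in the sources used here. Neither is the meaning of the pooled sorted-neuron RPKM, which holds 1 value per genotype; 7 of its 14751 rows had no value. Whole reads could be recovered from the values of 14613 of 14613 MOE genes (100%, tolerance 0.001 reads), up to a divisor common to the libraries, and gave the counting errors. All value columns were matched to a sample or group.

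Genes with a value of at least 0.5 in at least 2 libraries were kept (14602), and log2(value + 0.5) was compared. limma 3.58.1 in R 4.3.3 fitted genotype, odor and the odor-by-KO term, two-sided, with Benjamini-Hochberg adjustment over all genes, and was tested on simulated data. The labels do not say whether libraries are separate animals, and p-values cover only how these 6 libraries differ. Fold changes of low genes are understated by the added 0.5. Named genes are, in each of 4 lists, the 6 with the largest WT odor effect and the 6 with the largest KO minus WT, then 12 genes and 5 receptors per direction by the smaller of KO minus WT and KO minus Het, 5 per direction by limma p, and 2 of each other list. The lists of central nervous system and enamel genes were added after values were seen. Further members named were chosen after their values were seen. Members and lists were chosen with earlier results of these data known. Alternatives were other added values, filters, scalings and limma models. The other 27 samples enter only through the pooled sorted-neuron table or are not analysed here.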

Additional observations from a re-analysis of the deposited data

Results flagged for a closer look

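In 9 gene lists of at least 5 measured members the median odor effect in KO had the opposite sign to that in WT and in Het, and the median KO minus WT and KO minus Het were both at least 0.5 from 0. Other lists with the same signs and smaller differences, such as mature neuron markers, are not counted, nor are the lists added after values were seen. These differences were not tested, since each genotype had 1 library per treatment. The median KO minus WT was -0.98 for heat shock chaperones, -0.84 for horizontal basal cell markers, -0.77 for macrophage and dendritic cell markers, -1.49 for neutrophil, eosinophil and myeloid markers, -1.63 for bone, tooth and cartilage matrix and -1.16 for keratinized epithelium. It was 0.58 for olfactory signal transduction, 1.8 for odorant receptors and 1.5 for trace amine-associated receptors. The keratinized list had 11 measured members, most of them at low values.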

How the results depend on the processing

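No paired analysis was possible because each genotype and treatment had 1 library, and leaving out a library ends the comparison. With a minimum mean of 100 recovered reads, chosen after seeing the data, the genes at least 2-fold higher and lower numbered 294 and 285 in WT, 223 and 336 in Het, 200 and 184 in KO, 497 and 585 in KO minus WT, 693 and 650 in KO minus Het, and 521 and 507 in Het minus WT. This kept 10749 genes, of which 4.62% were 2-fold higher and 5.44% lower in KO minus WT, and the cause of the lower shares was not tested. Among odorant receptors 19 passed, with a median KO minus WT of 1.74. The keratinized list then kept 1 gene and its median turned to 1.46. Over all settings, 72 counts of genes were within 1.5 times the main count and 12 were not. Of list medians, 280 stayed within an interval for the median over the list's genes, 4 moved and 1 reversed. Of single genes, 836 stayed within the 95% counting interval and 11 moved, with 0 reversed. A change of sign counted as reversed only if the main log2 value was at least 0.5 (lists) or 1 (single genes) from 0. The limma calls went from 0 to 1 higher and 1 lower with Het pooled with KO, and to 71 and 26 with an effect linear in null alleles, and the cause was not tested. Without receptors the highest enrichment bin's median was 0.0083 beside 0.10. With 1 library per group, differences between animals could not be measured, and low genes have wide counting errors.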

Other observations

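The nasal lipocalins and major urinary proteins, secreted carriers of small molecules, had a summed value over 15 genes of 124440, 816608 and 363365 in the water libraries of WT, Het and KO, and 913814, 345203 and 367377 in their odor libraries. Interferon-induced genes were 2-fold lower in KO minus WT for 13 of 28 (median -0.94) and had a median of 0.33 in KO minus Het. Replication-dependent histone genes were 2-fold lower in KO minus Het for 40 of 64 (median -1.10) and for 18 of 64 in KO minus WT (median -0.53). Over all genes, 9.09% were 2-fold lower in KO minus Het and 9.26% in KO minus WT.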
